A study of Mus musculus with 16 samples.

Results

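The genes described here encode the proteins of the cytosolic ribosome. They were chosen by name: rows whose name is Rpl or Rps followed by a digit and then only digits or the letters a, l and x, together with Rplp0, Rplp1, Rplp2 and Rpsa, without pseudogenes and the S6 kinases. The rule found 86 of the 37255 gene rows of the deposited table, of which 44 encode proteins of the large subunit, 31 proteins of the small subunit, 3 proteins of the stalk and 8 paralogs (Rpl3l, Rpl7l1, Rpl10l, Rpl22l1, Rpl36al, Rpl39l, Rps4l and Rps27l), while Rpl32l was kept with the large subunit. ATAC-seq, which reads out open chromatin through the cuts of a transposase, had been run on retinal ganglion cells (RGCs), the neurons whose axons form the optic nerve. The cells were isolated by flow cytometry from eyes of female mice with experimental autoimmune encephalomyelitis (EAE), an autoimmune demyelinating disease, taken at the presymptomatic stage (n = 4 libraries), at onset (n = 3) and at peak (n = 4), and from naive control mice (n = 5). Disease was induced at 7 to 8 weeks of age, and the labels give no strain and no engineered allele, and do not tell whether each library stands for an animal of its own. The p-values below therefore weigh the differences between libraries, whatever their source.

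A ribosome holds a copy of nearly every one of these proteins, and cells make them in step with each other and with ribosomal RNA. Their genes are short, housekeeping and strongly transcribed in every cell type, neurons included, and their mRNAs begin with a run of pyrimidines, the 5′ terminal oligopyrimidine (TOP) motif, through which mTOR signalling sets their translation. Many of their introns carry small nucleolar RNAs (snoRNAs), which guide the modification of ribosomal RNA. In such genes open chromatin is known to lie mostly in a narrow region at the transcription start.

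The sequences upstream of the starts show what that region holds. RefSeq windows on GRCm38.p6, from 250 bases before to 50 bases after a listed start, matched 65 of the 86 genes by symbol, and the 120 bases just before the listed start are printed for 5 genes on which the results below turn. They are written 5′ to 3′ on the strand of the gene. Capitals mark matches lying whole within the printed bases to CCGGAAG (the core bound by ETS factors), AAGATGGC (the core of YY1 sites) or GGGCGG (a GC box). Both strands were searched, so that CCGCCC marks a GC box on the other strand. Matches elsewhere in the window are not marked. Rps15a has AAGATGGC and GGGCGG in its window and Rps21 has GGGCGG, none of them whole within the printed bases.
Rps27 (chr3:90213649-90213768, minus strand): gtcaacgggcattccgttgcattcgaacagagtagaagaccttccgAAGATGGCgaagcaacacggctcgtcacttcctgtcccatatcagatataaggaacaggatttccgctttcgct
Rps21 (chr2:180257259-180257378, plus strand): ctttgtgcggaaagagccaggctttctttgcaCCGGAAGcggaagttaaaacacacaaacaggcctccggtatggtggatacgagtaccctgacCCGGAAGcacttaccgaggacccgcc
Rpl13 (chr8:123102230-123102349, plus strand): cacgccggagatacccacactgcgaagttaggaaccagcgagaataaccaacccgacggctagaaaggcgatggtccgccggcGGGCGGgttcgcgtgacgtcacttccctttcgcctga
Rps15a (chr7:118116148-118116267, minus strand): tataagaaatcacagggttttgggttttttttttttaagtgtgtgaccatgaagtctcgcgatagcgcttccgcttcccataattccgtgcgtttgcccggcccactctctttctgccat
Rpl22, inner start (chr4:152325606-152325725, plus strand): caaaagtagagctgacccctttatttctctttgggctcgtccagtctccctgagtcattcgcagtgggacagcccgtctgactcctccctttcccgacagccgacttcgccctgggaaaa
Rps27 is one of 4 members whose own interval holds its start, Rps21 and Rpl13 have their starts inside the interval of a small RNA, Rps15a showed the smallest p at peak, and the second listed start of Rpl22 lies inside the counted gene body. CCGGAAG occurred in the windows of 26 of the 65 matched genes (40.0%), against 9.93% of all 27025 genes of the promoter table and 36.8% of 68 genes of the mitochondrial ribosome. AAGATGGC occurred in 9.23% of the matched members, against 3.19% of all genes and 17.6% of the mitochondrial ribosome genes, and GGGCGG in 61.5%, against 38.2% of all genes and 50.0% of the mitochondrial ribosome genes. A C at the listed start followed by 4 pyrimidines, the form of a TOP motif, was found in 21.5% of the matched members, in 3.01% of all genes and in none of the 68 mitochondrial ribosome genes (0%). A C with a longer run of pyrimidines within a few bases of the listed start was found in 44.6%, 12.8% and 5.88% in that order. Absence at the exact listed base is therefore not absence of the motif. Windows were not used here for members such as Rpl3, Rpl7, Rpl8, Rpl17, Rpl21, Rpl23a, Rpl29, Rpl30, Rpl32, Rpl36, Rplp1, Rps4l, Rps14, Rps20, Rps27a and Rps29. These matches describe the letters of the windows and say nothing of which factors were bound.

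The counted intervals left these starts out for most members. The deposited interval of each gene was its span less 1000 bp at either end, so a gene over 2000 bp entered as a trimmed body, and a gene under 1000 bp as a window that held its start and flanking DNA. This placement was inferred from interval lengths that return the deposited RPKM values, since the sources used here do not state it. Members had a median span of 3102.5 bp, against 11612 bp for all rows, which left a median interval of 1143.5 bp, against 9612 bp. Among the 86 members, 69 had a span over 2000 bp, 13 a span between 1000 and 2000 bp and 4 a span under 1000 bp (Rpl36, Rps27, Rps4l and Rpl32l). Of the intervals, 16 were shorter than 500 bp and 5 were shorter than 50 bp, with 2 to 11 reads each over all libraries.

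Reads in members were few. The 16 libraries together held 15921 reads in the 86 intervals, 0.0150% of nuclear reads, and the 5 highest members held 41.1% of those reads. A member had a median of 10 or more reads per library in 22 cases and a mean under 1 read in 9. The filter on low counts passed 34 members, of which 17 belong to the large subunit, 14 to the small subunit and 3 to the paralogs (Rpl3l, Rpl7l1 and Rps4l), and it removed 52, among them all 3 stalk genes. Other rows overlapped 28 members, 24 of them through rows of small RNAs hosted in their introns, and each row counts the shared reads for itself. The counting is not stated to use strand, so values of overlapping genes are uncertain.

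Over gene bodies the members had a median signal a little below that of all rows, and in the short intervals that hold a start a higher one. Signal is given as density, the reads per kb of interval and per M (mega) nuclear reads, in the intervals 500 bp or longer. In naive libraries the median density was 0.550 over 70 members, against 0.617 over 35269 rows of the whole table and 0.524 over 72 rows of the mitochondrial ribosome. For spans over 2000 bp it was 0.493 over 60 members, against 0.615 over all rows of that class. For spans under 1000 bp it was 5.42 over the 4 members, against 0.618 over all rows of that class, and 6.32 and 17.6 in the 2 rows of the mitochondrial ribosome, so a high value there was not limited to the members.

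The starts of 15 members could be seen through 17 short intervals, which were singled out after their values had been looked at. Of these rows 4 are the short members themselves and 13 are other genes, mostly snoRNAs and a microRNA near the 5′ end of the host. Averaged over the 16 libraries, density in these 17 rows had a median of 7.52 and a range of 0.558 to 41.2, and Rpl32l, which lies inside the interval of Map7, was the lone row under 2.87. Another 28 short rows overlapped a member without reaching its start. In 2 of them the interval ended under 100 bp away, Snord14a at 20 bp from the start of Rps13 with a density of 9.90 and Snora3 at 57 bp from that of Rpl27a with 3.02. The 26 rows that began 300 bp or more from the start had a median of 0.533, and all of them except Snord58b, in Rpl17, lay between 0.262 and 0.933. No row lay between these distances. Apart from Snord58b and Rpl32l, every row that held a start or ended under 100 bp from it was above every row farther away.

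**Figure D1:**
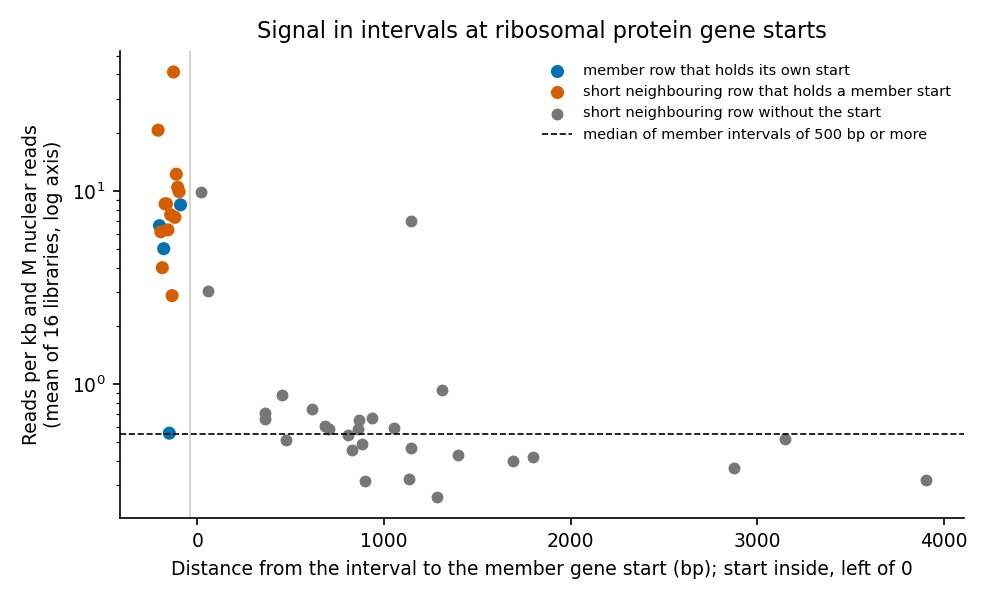
Read density (log axis, mean of 16 libraries) of short intervals that overlap a ribosomal protein gene, against the distance in bp from the interval to the gene's start, with intervals that hold the start spread out left of 0. Rows with the start inside have a median of 7.52, rows 300 bp or more away a median of 0.533, and Snord58b stands apart at 1145 bp with 6.97.

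Where body and start could be read in the same gene, the start was higher. The start of Rps21, which encodes a small eukaryote-specific protein of the small subunit, lies in the Mir3091 interval, where density was 18.2 ± 1.64 in presymptomatic (SD, n = 4), 28.1 ± 6.49 in onset (SD, n = 3), 20.2 ± 6.64 in peak (SD, n = 4) and 18.4 ± 9.0 in naive libraries (SD, n = 5). The body of Rps21, all of it inside that interval, averaged 3.48, 4.76, 2.60 and 2.11 in the same order of groups. RefSeq lists a second start of Rps21 70 bp after the first, which falls just inside this body, so the body is not free of a start. The start of Rpl3, which encodes a core protein of the large subunit, lies in the Snord43 interval with 6.41 ± 1.80 in naive libraries (SD, n = 5), against 0.836 ± 0.454 over its body. The highest value belonged to Rn7s1, the 7SL RNA of the signal recognition particle, whose interval holds the start of Rps29 and had 38.6 ± 14.5 in naive libraries (SD, n = 5). Rn7s1 and Rps29 share that interval, so this value cannot be given to Rps29 alone. The same holds for Rps2, whose start shares 3 intervals with Snhg9, Snora78 and Snora64.

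The 5 members of highest density in naive libraries were Rpl36 with 7.58 ± 2.51, Rps27 with 6.41 ± 2.38, Rpl17 with 5.80 ± 1.83, Rps4l with 4.43 ± 0.910 and Rpl22 with 2.76 ± 0.957 (SD, n = 5). Rpl36 and Rps27 are short genes whose interval holds the start. Rps4l, a paralog of the small subunit gene Rps4x, is another, but it lies inside the interval of Tmtc1 and shares reads with it. Rpl17 and Rpl22 are the 2 long genes of this group. In Rpl17, a large subunit gene on chromosome 18, the Snord58b interval held 1496 reads against 1523 for the whole counted body. That interval covers 80.9% of the body, so these counts do not place the reads at the snoRNA itself. In Rpl22, a large subunit gene whose loss impairs T cell development in mice, RefSeq lists a second start 1290 bp after the first, which is inside a body counted from 1000 bp after the first start.

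The lowest densities lay at the level of a few reads. Rpl18 had 0.216 ± 0.295, Rps18 0.211 ± 0.164, Rpl3l 0.191 ± 0.152, Rpl7a 0.135 ± 0.302 and Rps25 0.0381 ± 0.0853 in naive libraries (SD, n = 5). Rps25, a small subunit gene, collected 16 reads in all 16 libraries together and none in 10 of them, and Rpl7a none in 11. None of these intervals holds the deposited start of its gene, while RefSeq lists a second start of Rpl3l 4859 bp after the first, which lies inside its counted body as the second start of Rpl22 does.

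Paralogs were set beside their partners in naive libraries, with no test. Rpl3l, the form of striated muscle, had 0.191 ± 0.152 against 0.836 ± 0.454 for Rpl3, and Rpl39l, enriched in testis, 0.276 ± 0.249 against 0.860 ± 0.575 for Rpl39 (SD, n = 5 naive libraries). Rpl7l1 had 0.354 ± 0.192 against 0.911 ± 0.377 for Rpl7. Rpl36al had 1.24 ± 1.06 against 0.815 ± 0.869 for Rpl36a, and the interval of Rpl10l, a testis form, gave 0.279 ± 0.402 against 0.738 ± 0.675 over the 320 bp of Rpl10. Rps27l had 0.477 ± 0.503 over a body, which cannot be set against the start-holding interval of Rps27, and Rpl22l1 has an interval of 19 bp. The stalk genes, whose proteins recruit elongation factors, had 0.284 ± 0.236 for Rplp0, 1.02 ± 1.00 for Rplp1 and 0.428 ± 0.366 for Rplp2.

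Libraries differed in ways that touch these values. Nuclear reads in intervals ran between 1.58 and 15.1 M, the mitochondrial share of interval reads between 8.36% and 64.7%, and the share of nuclear reads in olfactory and vomeronasal receptor rows, used as a measure of background, between 0.201% and 0.580%. Between 7 and 42 members had no read in a library. The RGC markers had a median naive density of 1.12, close to the 1.13 of rod markers, with no marker of either list at 0 in all libraries, so these counts did not set RGCs apart from rods, while microglial and lymphocyte markers had medians of 0.445 and 0.415. The 19 rod markers summed to 612 to 948 reads per M nuclear reads in presymptomatic libraries, 924 to 1842 in onset libraries, 554 to 933 in peak libraries and 512 to 838 in naive libraries, so onset lay above naive. The 19 RGC markers summed to 411 to 440, 368 to 419, 428 to 620 and 351 to 444 in the same order. The sums for Müller glia and astrocytes (12 markers), microglia (15) and lymphocytes (12) overlapped between each stage and naive. In sorted populations more cells of a type and more signal per cell cannot be told apart.

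The share of reads that fell in the members overlapped between all groups. Per M nuclear reads, presymptomatic libraries had 140, 128, 127 and 152 member reads, onset libraries 182, 150 and 221, peak libraries 154, 153, 123 and 192, and naive libraries 149, 159, 89.9, 124 and 157. The groups overlapped, with means of 137 ± 11.5 in presymptomatic (SD, n = 4), 184 ± 35.5 in onset (SD, n = 3), 155 ± 28.2 in peak (SD, n = 4) and 136 ± 29.1 in naive libraries (SD, n = 5). The 3 lowest libraries, naive replicates 3 and 4 and peak replicate 3, were also the 3 of highest receptor share, with 0.580%, 0.511% and 0.508%. Without them the naive libraries spanned 149 to 159 and the peak libraries 153 to 192. The highest, onset replicate 3, had the lowest mitochondrial share (8.36%) and the most rod marker reads (1842 per M). The 4 members that hold their own start had 15.0 to 25.8 reads per M in presymptomatic, 28.6 to 32.3 in onset, 8.69 to 28.4 in peak and 13.5 to 27.9 in naive libraries, with onset above naive. The part of background and of rod reads in these differences was not tested.

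**Figure D2:**
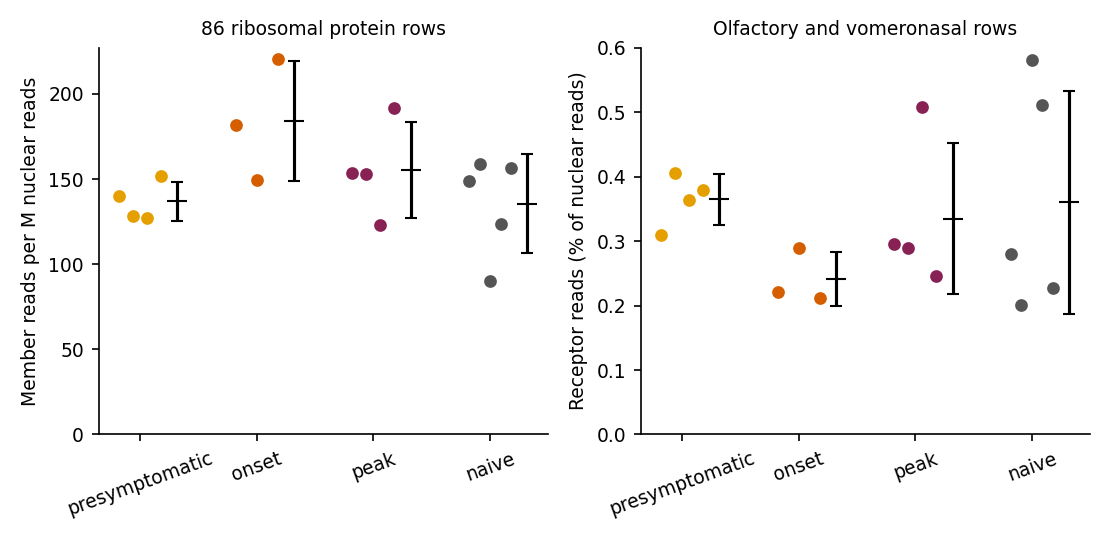
Reads in the 86 ribosomal protein rows per M nuclear reads (left) and the share of nuclear reads in receptor rows (right), 1 point per library, with the mean and SD of each group beside the points. Onset libraries have 150 to 221 member reads per M and receptor shares of 0.212% to 0.289%, and the 3 libraries above 0.5% on the right are the 3 lowest on the left.

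No member passed the test in any comparison. Counts were fitted over all 29902 rows that passed the filter, with edgeR's quasi-likelihood test and Benjamini-Hochberg adjustment at 0.05, and all comparisons with naive share the 5 naive libraries. Of 34 members, 0 passed in each of the 6 comparisons between groups and in the F test for any stage, where the same was true of the whole table (0.0% of rows called in every one of them). DESeq2 and limma voom also called 0 members. Over all 29902 rows limma voom called 0 in each comparison between groups. DESeq2 called 1 row in peak against naive, 1 in onset against presymptomatic, 5 in peak against onset and 0 in the rest. Within stages, members spread about as much as other rows of like counts: the median SD of log2 CPM was 0.603 for members of 20 to 50 reads, against 0.710 for all rows of that range, and 0.973 against 0.948 for 10 to 20 reads. In the F test 1 member had an unadjusted p under 0.05, Rpl17 with 0.0435, against 3.16% of all rows.

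At the presymptomatic stage the members centred near naive, as all rows did. Log2 fold changes were above 0 for 14 of 34 members, against 41.6% of all rows, with a median of -0.14, against -0.06 for all rows. None had an unadjusted p under 0.05, against 1.16% of all rows, and none had groups that did not overlap, against 0.846%. On the higher side the smallest p values belonged to Rpl24, Rps21, Rps20, Rps18 and Rpl34, and on the lower side to Rpl7l1, Rpl17, Rps7, Rps4x and Rpl3. Rpl24, a large subunit gene mutated in the mouse strain with a belly spot and tail defect, had CPM values (counts per M reads of the library, after TMM scaling) of 2.01, 2.90, 2.18 and 0.699 in presymptomatic libraries, against 0.427, 2.13, 0.996, 0.422 and 1.42 in naive libraries. The groups overlapped, and the log2 fold change was 0.84 ± 0.55 (SE), with an unadjusted p of 0.137 in edgeR. Rps7, a small subunit gene, had 0.729, 0.725, 0.136 and 0.466 CPM in presymptomatic libraries, against 0.962, 1.13, 0.460, 1.05 and 0.946 CPM in naive libraries. Naive replicate 3 lay below 3 of the presymptomatic libraries, and the log2 fold change was -0.80 ± 0.66 (SE). Rpl7l1 had the lowest p on the lower side, with a log2 fold change of -0.96 ± 0.66 (SE). The start intervals described above did not lean upward either: 3 of 14 were above 0, with a median of -0.11.

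At onset more of the 34 tested members had positive fold changes than negative ones, and the short ones leaned furthest. Log2 fold changes were above 0 for 24 of 34 members, against 48.6% of all rows, with a median of 0.34, against -0.01 for all rows. By subunit, 13 of 17 large subunit genes, 8 of 14 small subunit genes and 3 of 3 paralogs were above 0, with medians of 0.47, 0.25 and 0.16. The 6 members with a span under 2000 bp were all above 0 (median 0.70), and 18 of the 28 longer ones (median 0.17). An unadjusted p under 0.05 was reached by 1 member, against 4.95% of all rows, and 1 member had groups that did not overlap, against 2.53%, shares close to those of the whole table. Without onset replicate 3, the library with the most rod marker reads, the median was 0.16 with 20 of 36 members above 0. Without the low-count filter, 46 of all 86 members were above 0, with a median of 0.15.

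Rps21, whose counted interval holds its second listed start, was the member with the smallest p. It had 1.76, 2.64 and 2.30 CPM in onset libraries, against 1.92, 1.37, 0.306, 0.527 and 0.946 CPM in naive libraries. The lowest onset library lay below the highest naive one, and the log2 fold change was 1.14 ± 0.54 (SE), with an unadjusted p of 0.0439 and an adjusted p of 0.972 in edgeR. Rps7 was the member whose groups did not overlap, with 2.01, 1.5 and 1.15 CPM at onset, against 0.460 to 1.13 CPM in naive libraries, and its log2 fold change of 0.74 ± 0.65 (SE) had an adjusted p of 0.992 in edgeR. Rpl22 had 13.3, 15.9 and 21.2 CPM in onset libraries, against 10.6, 10.6, 5.98, 12.9 and 16.2 CPM in naive libraries, a log2 fold change of 0.58 ± 0.31 (SE). Rpl17, whose protein lines the exit tunnel of the large subunit, had 12.9, 10.7 and 8.48 CPM in onset libraries, against 6.94, 7.27, 4.37, 8.01 and 10.6 CPM in naive libraries, a log2 fold change of 0.52 ± 0.34 (SE). In both genes the onset libraries were on the high side and still overlapped naive. Rpl36, whose interval holds its start, had 6.15, 7.40 and 5.80 CPM in onset libraries and 4.64 ± 1.32 CPM in naive libraries (SD, n = 5). Its log2 fold change was 0.47 ± 0.36 (SE). Rpl19 and Rpl24 completed the higher side with log2 fold changes of 0.70 ± 0.45 and 0.90 ± 0.59 (SE). The deposited start of Rpl19 lies 3630 bp from the nearest listed start, the largest distance among matched members, so its interval may hold a listed start. On the lower side stood Rps4x, Rpl21, Rps3a1, Rpl15 and Rps19, the small subunit gene most often mutated in Diamond-Blackfan anaemia. Rps4x, the X-linked partner of Rps4l, had 0.251, 0.623 and 1.01 CPM in onset libraries, against 0.427, 1.13, 4.14, 1.58 and 1.10 CPM in naive libraries, with 2 onset libraries inside the naive range.

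The start intervals were read in the same way, with 1 row kept for each of 14 members. All 14 were above 0 at onset, between 0.14 and 1.10 on the log2 scale, and their median was 0.51. This set is not separate from the short members. Rps27, Rps4l and Rpl36 belong to both, and the Rps21 interval lies inside the Mir3091 row. Mean log2 CPM over these rows was 3.29, 3.25 and 3.18 in onset libraries, against 2.83, 2.80, 2.24, 2.24 and 3.22 in naive libraries, so naive replicate 5 lay among the onset libraries. Snora21, at the start of the large subunit gene Rpl23, was chosen after its values were seen, for the smallest p. It had 3.52, 3.52 and 7.51 CPM in onset libraries, against 3.10, 1.85, 1.15, 2.74 and 2.60 CPM in naive libraries. These groups did not overlap, and the log2 fold change was 1.10 ± 0.45 (SE), with an unadjusted p of 0.0206 and an adjusted p of 0.972 in edgeR. Other short rows leaned the same way: of 475 rows under 1000 bp with a mean density of 2 or more, 78.9% were above 0 at onset (median 0.27), and of 1209 such rows under that density, 35.6% (median -0.29). With the receptor share as a covariate the median of the start intervals was 0.25 with 13 of 14 above 0. Leaving out naive replicates 3 and 4 and peak replicate 3 gave 0.28 with 12 of 14 above 0.

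**Figure D3:**
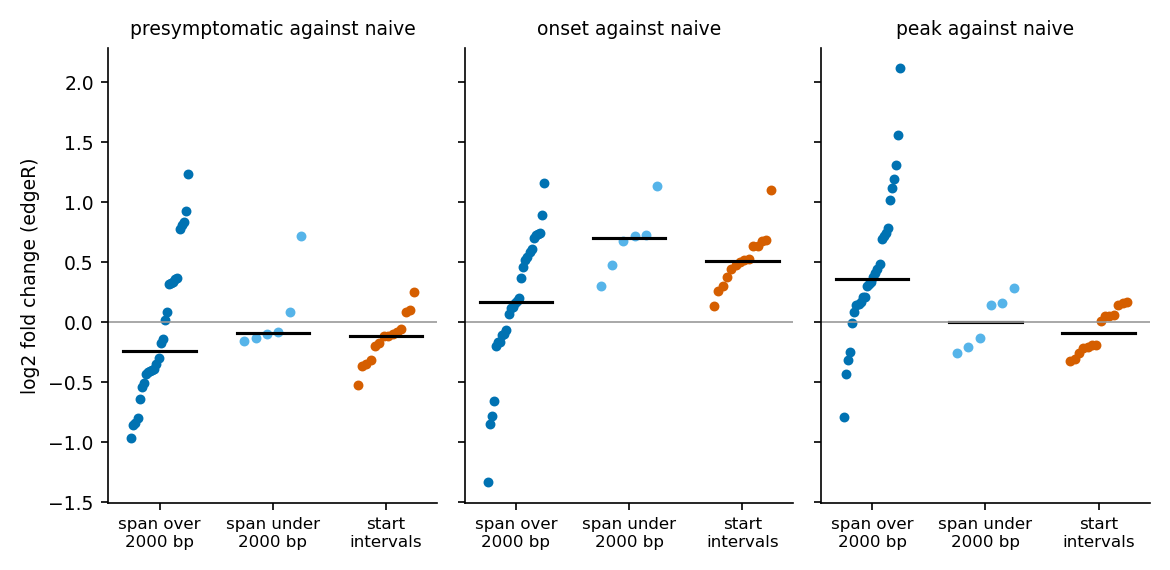
Log2 fold change of each stage against naive (edgeR) for the 28 tested members with spans over 2000 bp, the 6 with spans under 2000 bp and the 14 start intervals, 1 point per row sorted by value, with a bar at the median. At onset the short members and the start intervals all lie above 0 with medians of 0.70 and 0.51, and at peak the medians are 0.36 for long members and -0.09 for start intervals. Rps27, Rps4l and Rpl36 belong to both the short members and the start intervals, and the Rps21 interval lies inside the Mir3091 row.

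At peak more of the 34 tested members had positive fold changes than negative ones, while the start intervals were evenly split. Log2 fold changes were above 0 for 26 of 34 members, against 47.1% of all rows, with a median of 0.30, against -0.03 for all rows. Among members with spans over 2000 bp, 23 of 28 were above 0 (median 0.36), among shorter members 3 of 6 (median 0.01), and among start intervals 7 of 14 (median -0.09). Of the 475 other short rows of high density, 22.9% were above 0 (median -0.29). The differences between these sets were not tested. None had an unadjusted p under 0.05, against 3.61% of all rows, and 1 member had groups that did not overlap, against 0.977%. The median was 0.12 without the low-count filter, with 46 of all 86 members above 0, so the larger lean belongs to the 34 tested members. Over the tested members the median was 0.09 in limma voom. Without peak replicate 1 it was 0.18.

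Rps15a, a small subunit gene, was the member whose groups did not overlap at peak. It had 4.25, 4.99, 5.78 and 4.35 CPM in peak libraries, against 3.42, 2.43, 2.14, 2.64 and 3.47 CPM in naive libraries. The log2 fold change was 0.79 ± 0.39 (SE), with an unadjusted p of 0.0509 in edgeR. Rpl24 had 1.13, 2.14, 1.93 and 4.35 CPM in peak libraries and a log2 fold change of 1.02 ± 0.57 (SE), with peak and naive libraries overlapping. Rps18 and Rpsa, the gene of the laminin receptor precursor, had log2 fold changes of 2.12 ± 1.14 and 1.56 ± 1.04 (SE) that rest on at most 18 reads per library, and Rpl34 had 1.20 ± 0.85 (SE). On the lower side stood Rpl17, Rpl22, Rps27 and Rps4l, of which Rps27 and Rps4l hold their starts. Rpl17 had 4.25, 5.13, 3.37 and 9.95 CPM in peak libraries and a log2 fold change of -0.43 ± 0.33 (SE).

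**Figure D4:**
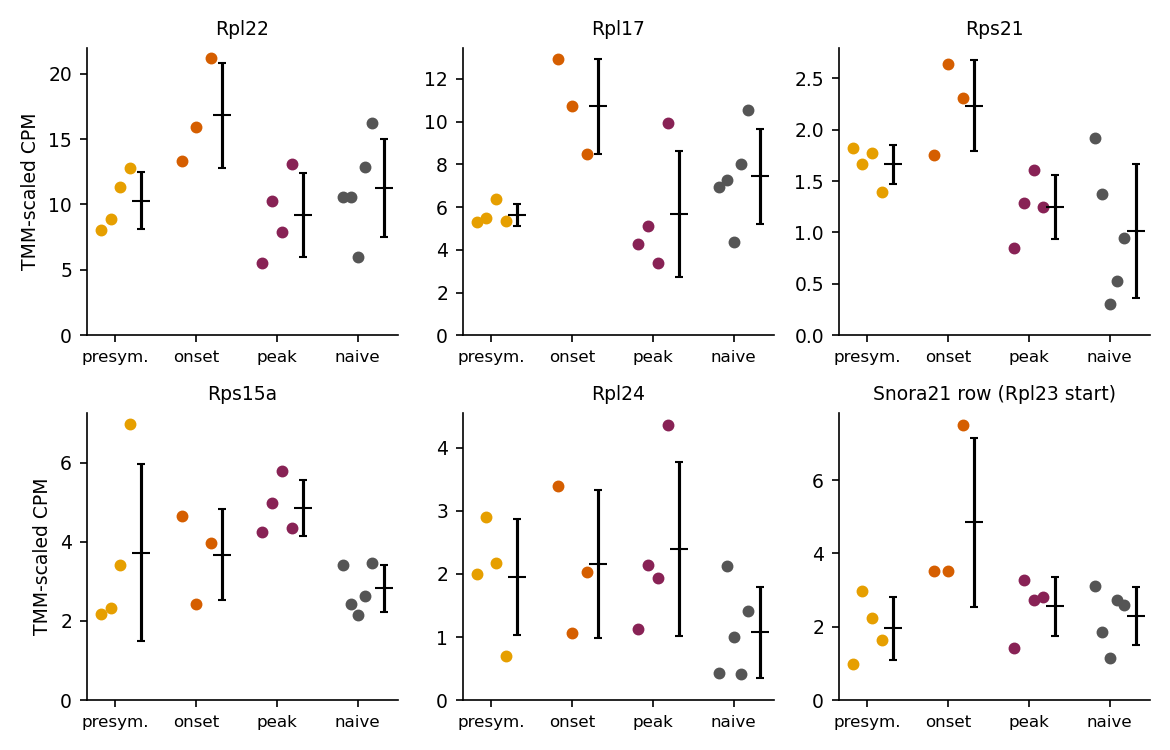
TMM-scaled CPM of 5 members and of the Snora21 row at the start of Rpl23 in each library, with the mean and SD of each group beside the points. The Rps15a panel shows peak libraries at 4.25 to 5.78 CPM above naive libraries at 2.14 to 3.47 CPM, and in the Rpl22, Rpl17 and Rps21 panels the onset libraries lie high but overlap naive.

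Between stages, no member passed the test either. In onset against presymptomatic, 21 of 34 members were above 0 (53.3% of all rows) with a median of 0.39, and 4 had an unadjusted p under 0.05, against 4.13% of all rows. These were Rpl17, Rpl22, Rpl19 and Rps7, all higher at onset, with log2 fold changes of 0.92 ± 0.36, 0.72 ± 0.33, 1.12 ± 0.48 and 1.55 ± 0.72 (SE) and adjusted p values of 1.00 in edgeR. Rpl17 had 12.9, 10.7 and 8.48 CPM in onset libraries, against 5.29, 5.51, 6.39 and 5.36 CPM in presymptomatic libraries, 2 groups that did not overlap. Such separation was common in this comparison. It held for 5 of 34 members, all higher at onset, and among all 29902 rows for 1608 higher and 1402 lower at onset. Over spans above 2000 bp alone the median was 0.05. In peak against onset, 22 of 34 members were above 0 (52.1% of all rows), with a median of 0.15. Unadjusted p values under 0.05 were found for 2 members, against 6.65% of all rows, Rpl22 with -0.90 ± 0.34 (SE) and Rpl17 with -0.96 ± 0.37 (SE), each with an adjusted p of 0.737 in edgeR. All 14 start intervals were below 0 in that comparison (median -0.52), as were 409 of the 475 other short rows of high density. In peak against presymptomatic, 25 of 34 members were above 0 (53.3% of all rows), with a median of 0.39. An unadjusted p under 0.05 in edgeR was found for 1 member, against 3.41% of all rows, Rpl7l1 with 1.71 ± 0.70 (SE). Without the low-count filter the median of peak against presymptomatic was 0.044, and that of onset against presymptomatic was also lower than among the 34 tested members. The 3 comparisons share libraries with one another and with those against naive.

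Genes around the ribosome showed no call either. The lists held translation factors and other genes with TOP mRNAs (16 tested of 17 rows), ribosome assembly factors (21 of 23), RNA polymerase I and its factors (13 of 15), growth control genes of the mTOR and Myc pathways (15 of 16) and the mitochondrial ribosome (59 of 77). In edgeR 0 passed in any comparison with naive. At onset the members above 0 were 7 of 16, 14 of 21, 7 of 13, 10 of 15 and 41 of 59 in that order of lists, and at peak 8 of 16, 9 of 21, 5 of 13, 8 of 15 and 33 of 59. The smallest p values at onset belonged to Eif3l, an initiation factor subunit, with 5.40, 3.92 and 7.42 CPM in onset libraries, against 2.78, 2.67, 1.38, 2.95 and 2.68 CPM in naive libraries. Those groups did not overlap, and the log2 fold change was 1.16 ± 0.41 (SE). Polr1b, the second largest subunit of RNA polymerase I, had 0.97 ± 0.39 (SE) at onset and 1.05 ± 0.37 (SE) at peak, where Eif4b had 1.03 ± 0.41 (SE) and Mycn -0.80 ± 0.33 (SE). Mrpl20, of the mitochondrial ribosome, had the smallest p of its list at peak, with 0 reads in all 4 peak libraries, against 6, 35, 0, 4 and 8 reads in naive libraries, counts too low for a fold.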

How the data were processed

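One table of gene rows was analysed, with counts and RPKM values for 16 ATAC-seq libraries in 4 groups. The authors deposited whole-number counts per row and RPKM values (reads per kb and per M library reads, M for mega), after trimming with cutadapt, alignment with HISAT2 and counting with HTSeq, per the submitters' processing notes; versions and genome build are not given in the sources used here. Dividing the deposited counts by the interval length and the library total returned the deposited RPKM with a largest relative deviation of 9.15e-14. Nuclear interval reads were 1.58 to 15.1 M per library, and 302 to 2403 reads per library fell in the members; short counts limit precision, and 52 members were too low to test. The rows used as mitochondrial are 13 rows of chromosome M. Deposited gene starts equalled a listed GRCm38.p6 start for 48 of 65 members.

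Counts were tested with edgeR 4.0.16 (filterByExpr with a minimum count of 10 and total of 15, TMM scaling, 1 mean per group, quasi-likelihood F test, Benjamini-Hochberg adjustment over 29902 rows at 0.05), in R 4.3.3. Fold changes are log2 as returned by the quasi-likelihood fit, and log2 CPM values used a prior count of 2. limma 3.58.1 and DESeq2 1.42.0 were alternatives, with other scaling, no filter, a receptor-share covariate, a replicate block and libraries left out. The fit was tested on simulated data. No pair of replicates had duplicate counts (chi-square per degree of freedom of 5.04 or more).

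Members and lists were chosen with earlier results of these data known. Named genes are, in each comparison with naive, the 5 members of smallest p on each side, the 5 of highest and 5 of lowest naive density in intervals of at least 500 bp, the paralogs and their partners, the members whose interval holds their start, and in other lists the gene of smallest p. Start intervals, spans over 2000 bp and libraries of high receptor share were examined after seeing the data. Some members are not reported by name here.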

Additional observations from a re-analysis of the deposited data

Results flagged for a closer look

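Among 111 groups of 4 or 5 libraries, over the named members, the start intervals and summed levels per library, 1 held a library far from the others, where chance gives about 5.55. Rps7 had its lowest naive library at 0.460 CPM, apart from the other 4.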

How the results depend on the processing

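Member calls were 0 under every alternative run. Scaling by library size alone moved the members' median log2 fold change to 0.13 at the presymptomatic stage (all rows 0.26), 0.99 at onset (all rows 0.60), 0.71 in onset against presymptomatic, -0.34 in peak against onset and 0.10 in peak against presymptomatic, and the start intervals to 1.11 at onset. Leaving out 1 library at a time gave -0.23 to 0.11 at the presymptomatic stage (0.11 without naive replicate 2), 0.16 to 0.46 at onset, 0.18 to 0.44 at peak, 0.20 to 0.41 in onset against presymptomatic, 0.01 to 0.31 in peak against onset and 0.27 to 0.47 in peak against presymptomatic. Without presymptomatic replicate 4 and onset replicate 3, labelled 16 and 17, the onset median was 0.061. In onset against presymptomatic it was 0.16 without the filter, 0.19 with the receptor covariate, and 0.046 both outside other rows and over spans above 2000 bp. In peak against onset it was -0.13 in limma voom, 0.40 with the receptor covariate and 0.39 over spans above 2000 bp. In peak against presymptomatic it was 0.044 without the filter and 0.17 in limma voom. As deposited RPKM, whose totals include mitochondrial reads, the naive density of members was 0.126. The cause of the other changes was not tested.

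Sign changes of single genes were 0.041 for Rps4x at the presymptomatic stage without the 3 libraries of highest receptor share, 0.079 for Rps3a1 at onset by library size, 0.57 for Rps19 at onset by library size, 0.028 for Rps19 at onset and 0.033 for Rps4l at peak without those 3 libraries. With 1 library left out Rps19 ranged between -0.75 and 0.12 at onset, and was above 0 without onset replicate 1, naive replicate 2 or naive replicate 3, and Rps4l ranged between -0.78 and 0.11 at peak, and was above 0 without peak replicate 3. The other 870 values of single genes stayed on their side. Of the summaries, 418 stayed close to the main value, with medians within the SD between libraries or call counts alike. The call counts of members were 0 in every run, and the main fit called no row of the whole table, so their likeness says little. A median could stay close and still change sign. Replicate numbers did not pair libraries: 21 same-numbered pairs correlated at -0.34 to 0.37, and with a replicate block the members' medians were 0.04, 0.42 and 0.24 at the presymptomatic, onset and peak stages, with 0 calls.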
